A study of Homo sapiens with 72 samples.

Results

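The genes of 9 surface antigens of B cells, CD22, MS4A1, CD37, CD38, CD52, CD72, CD24, CR2 and FCER2, were read out in Cut&Tag profiles of 3 B cell tumour lines. They were listed by name because antibodies or engineered T cells against B cell tumours bind, or have been made to bind, such antigens, and they are 9 of the 20033 protein-coding genes of the GENCODE 44 annotation of hg38. Each gene was followed in 2 windows. The first lay within 1 kb of any of its annotated transcript starts, and a peak in it is called a start peak here. The second was the whole gene with 3 kb on each side.

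In Cut&Tag an antibody against a histone mark guides a transposase, which cuts and tags the DNA nearby for sequencing. The marks were H3K4me2, H3K4me3 and H3K27me3. Raji is an Epstein-Barr virus (EBV) positive Burkitt lymphoma line, and NALM6 and REH are lines of B cell acute lymphoblastic leukemia. Each line was left untreated or given 1 nM bryostatin, a modulator of protein kinase C, overnight per the labels (a full day in the study's text), with 3 replicates per group, which makes 54 libraries, and no group is labelled with a genetic change. Each line stands for a single patient's tumour, so a difference between lines cannot be told apart from a difference between patients, and no source here says whether replicates came from separate cultures, so the p-values measure the spread between these libraries. Peaks had been called by the authors, library by library, with SEACR, and each carries its total signal, the coverage summed over its bases.

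H3K4me3 marks the starts of genes that are transcribed or ready to be, and H3K4me2 covers the same starts more broadly and also enhancers. H3K27me3 is laid down by the Polycomb complex over genes that are kept silent. Along the B lineage the antigens appear in a known order: CD24, CD38, CD22 and CD72 are already carried by precursor cells, MS4A1 rises as precursors mature, and CR2 and FCER2 belong to mature B cells.

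Depth could be read in 48 libraries, whose values are reads per kilobase per 1e6 mapped reads (RPKM) in 10 bp bins, and ran from 5.12 to 47.9 M mapped reads (M, 1e6) with a median of 18.8 M. The 6 libraries of NALM6 replicate 1 carry another scale and short peaks, with median lengths of 584 to 917 bp. Values and tests of NALM6 include them unless stated otherwise. The genes called between lines are also given without them. Peak numbers ran from 7130 to 22644 for H3K4me2, from 4391 to 12844 for H3K4me3 and from 590 to 102183 for H3K27me3, so a missing peak does not show that a mark was absent. EBV peaks were present in 18 of 18 Raji libraries and in none of the 18 NALM6 and 18 REH libraries. All 5 B lineage markers had H3K4me3 start peaks in at least 3 of 6 libraries of every line, and of 5 precursor B markers 1 did in Raji, 5 in NALM6 and 4 in REH. Of 5 markers of T and NK cells 1 reached 3 libraries, in Raji, and of 5 myeloid markers none did in any line. H3K4me2 start peaks reached 3 libraries at NKG7 in Raji and at CD8A, NKG7, CSF1R and MPO in REH. In bulk libraries, fewer marked cells and less mark per cell cannot be told apart.

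The sequences of 4 promoters on which the comparisons turn are shown first. They are the main start of CD22, the outermost start of CD24, and starts of CR2 and FCER2. At CD22 H3K4me3 rose with bryostatin in REH, a call that some alternatives lost. CD24 carried opposite marks between the lines, and CR2 and FCER2 were marked with H3K4me3 in Raji alone. RefSeq (GRCh38.p14) listed promoters for 7 of the 9 genes, and those of MS4A1 and CD37 are not shown. Each line gives bases before the start that lie outside every annotated exon of the gene, written 5′ to 3′ on the gene's strand, with CpG dinucleotides in capitals.
CD22, chr19:35328937-35329165, plus strand: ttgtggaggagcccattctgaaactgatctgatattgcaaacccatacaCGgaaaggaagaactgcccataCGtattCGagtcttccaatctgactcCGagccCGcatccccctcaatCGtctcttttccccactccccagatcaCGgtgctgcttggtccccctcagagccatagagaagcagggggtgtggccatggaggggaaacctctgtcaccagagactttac
CD24, chr6:106975628-106975877, minus strand: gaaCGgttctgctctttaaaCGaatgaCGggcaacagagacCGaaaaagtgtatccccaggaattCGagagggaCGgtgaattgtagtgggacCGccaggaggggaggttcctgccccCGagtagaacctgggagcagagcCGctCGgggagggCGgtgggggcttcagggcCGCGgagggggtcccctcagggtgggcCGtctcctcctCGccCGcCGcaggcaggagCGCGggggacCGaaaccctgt
CR2, chr1:207454078-207454229, plus strand: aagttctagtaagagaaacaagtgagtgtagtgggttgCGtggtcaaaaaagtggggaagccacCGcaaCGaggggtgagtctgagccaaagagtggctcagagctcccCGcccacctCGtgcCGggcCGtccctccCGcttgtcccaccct
FCER2, chr19:7699480-7699691, minus strand: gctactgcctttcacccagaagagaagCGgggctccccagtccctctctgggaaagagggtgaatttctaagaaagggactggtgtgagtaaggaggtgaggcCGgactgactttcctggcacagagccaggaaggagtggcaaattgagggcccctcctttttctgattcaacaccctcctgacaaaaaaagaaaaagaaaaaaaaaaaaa
Over the full 300 bases of a RefSeq promoter window (250 before the start and 50 from it on), the outermost CD24 promoter held 25 CpG and another CD24 start at 106975465 held 36. The CR2 window held 21, that of CD22 9, that of CD72 6, and those of CD38 and CD52 4 each. FCER2 had 6 at its outer start and 4 at its inner one, where the median over 34943 promoters was 14 (quartiles 4 and 28). In all, 4 letter patterns were searched on both strands: the octamer ATGCAAAT, a loose AP-1 pattern TGANTCA, the EBF pattern TCCCNNGGG and the ETS core AGGAAG. Among the windows of the 7 genes the loose AP-1 pattern was found only in those of FCER2, at -85 bp from the inner start and at -249 bp from the outer one, and 7.72% of all promoters held it. Both matches read TGATTCA, which is not the stricter AP-1 site, TGACTCA or TGAGTCA. The octamer, held by 1.77% of all promoters, was in none of the windows of the 7 genes. The ETS core, held by 33.7%, was at -196 bp in CD22, at -107 and -71 bp in CD52, at -189 and -46 bp in CD72 and once in each FCER2 window. Overlapping EBF patterns, held by 8.87% of promoters, lay at -177 and -176 bp of the innermost CD24 start. These are matches of letters, not binding sites.

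**Figure D1:**
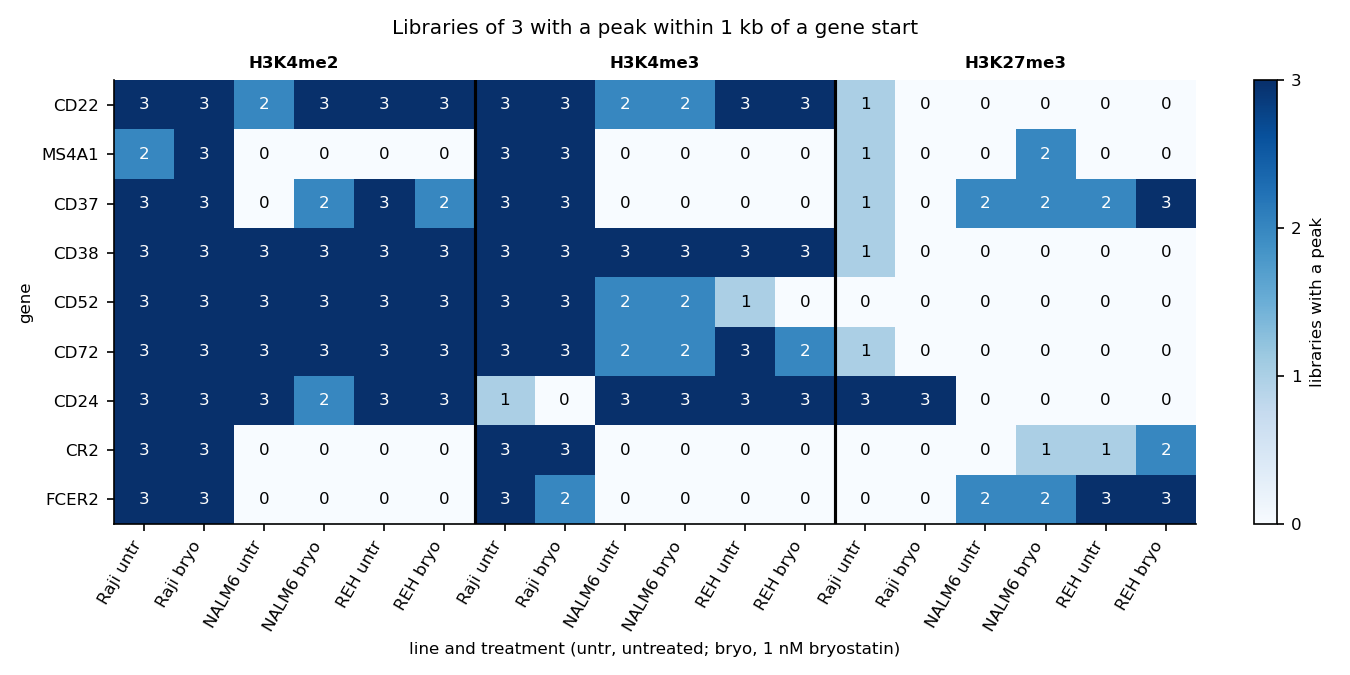
Number of libraries, of 3, with a peak within 1 kb of a start of each gene (rows), by mark, line and treatment (columns). MS4A1, CR2 and FCER2 have H3K4me2 and H3K4me3 start peaks in Raji columns alone, and CD24 has H3K27me3 start peaks in Raji alone.

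The first question was which lines carried active marks at the starts. Over 54 pairs of gene and library, H3K4me3 start peaks were found in 48 pairs in Raji, 24 in NALM6 and 24 in REH, and H3K4me2 start peaks in 53, 30 and 35. All 9 genes had an H3K4me2 start peak in at least 1 Raji library and all 9 an H3K4me3 one, while 3 genes had no H3K4me2 start peak and 4 no H3K4me3 start peak in any library of NALM6, and the same numbers held in REH. Over all protein-coding genes the lines were closer, with H3K4me3 start peaks at a median of 53.0% of genes in Raji, 46.9% in NALM6 and 48.9% in REH. In untreated libraries, 4 of the 9 genes (MS4A1, CD37, CR2 and FCER2) had H3K4me3 start peaks in all 3 Raji libraries and in none of REH, where 4.76% of all genes were split between these lines in either direction. The same 4 were split between Raji and NALM6, with 4.37% of all genes, and none of the 9 was split between NALM6 and REH, with 1.96%. For H3K4me2, CR2 and FCER2 were split between Raji and REH, toward Raji (8.03% of all genes in either direction, 286 toward Raji and 1322 toward REH). CD37, CR2 and FCER2 were split between Raji and NALM6, toward Raji (6.49%, 900 toward Raji and 401 toward NALM6). CD37 was split between NALM6 and REH, toward REH (8.39%, 81 toward NALM6 and 1600 toward REH). No test was run on these counts.

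MS4A1 encodes CD20, the tetraspan protein bound by rituximab, and lies at chr11:60455846-60470752 on the plus strand. In Raji its H3K4me3 signal over the gene, in multiples of the median peak of each library, was 1.62, 1.31 and 0.999 untreated and 1.89, 1.55 and 1.03 with bryostatin. No H3K4me2 or H3K4me3 peak was called anywhere in the gene window in the 12 NALM6 and REH libraries of each mark. H3K4me2 in Raji was 1.90, 0 and 1.92 untreated and 3.85, 3.02 and 1.35 treated, and the library without a peak, untreated replicate 2, was the shallowest of the 6 at 6.70 M reads. The strongest H3K4me3 peak of each Raji library had its maximum at a median of 63.5 bp from the canonical start, and 82.2% of the H3K4me3 bases called in the window were intronic. H3K27me3 was called in 2 treated NALM6 libraries, inside or beyond the gene near inner annotated starts, and in 1 untreated Raji library within 1 kb of the canonical start, which none of these peaks covered.

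CR2 encodes CD21, the receptor for complement fragment C3d and for EBV, and lies at chr1:207453024-207489895 on the plus strand. Its H3K4me3 in Raji was 1.09, 0.715 and 0.643 untreated and 0.773, 0.796 and 0.607 treated, so the treated values lay within the untreated range except for the lowest. H3K4me2 in Raji was 2.23, 0.861 and 2.46 untreated and 4.94, 4.24 and 1.71 treated. The groups overlapped, and every treated Raji H3K4me2 library (15.6 to 18.8 M reads) was deeper than every untreated one (6.70 to 13.9 M), whose part in the higher values was not tested. No library of NALM6 or REH had either mark in the CR2 window. H3K27me3 start peaks of CR2 were called in 3 of 6 REH libraries, with maxima from -82.5 to -32.5 bp of the canonical start, in 1 of 6 NALM6 libraries and in none of Raji.

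FCER2 encodes CD23, the low-affinity receptor for IgE, and lies at chr19:7688758-7702146 on the minus strand. Its H3K4me3 in Raji was low, with 0.0737, 0.292 and 0.139 untreated and 0.0425, 0.414 and 0 treated, all under the median peak of their library. H3K4me2 in Raji was 2.03, 0.782 and 2.22 untreated and 2.28, 3.50 and 1.78 treated. H3K4me2 peaks covered the canonical start at 7702131 in 4 of 6 Raji libraries, and H3K4me3 peaks covered it in none. The maxima of the strongest H3K4me3 peaks lay 2126 to 3681 bp downstream of it in the 5 Raji libraries with a peak, around the inner RefSeq start that lies 2690 bp downstream, whose promoter is the one printed. In NALM6 and REH the same stretch carried H3K27me3, with maxima 2956 to 5186 bp downstream in NALM6 and 3246 to 3786 bp in REH. H3K27me3 over FCER2 was 5.64, 2.97 and 2.86 in untreated REH and 1.82, 6.17 and 7.81 in treated REH, so all 6 REH libraries had it, treated and untreated overlapped, and no Raji library had any. In NALM6 it was 3.65 and 1.78 in untreated replicates 2 and 3 and 3.87 and 10.0 in treated ones, and no peak was called in either replicate 1. The 10.0 came from treated replicate 3, whose 78872 peaks had a median length of only 380 bp. A multiple of that median peak cannot be set beside those of the other libraries.

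CD37 encodes a tetraspanin of B cells and lies at chr19:49335171-49343335 on the plus strand. Its H3K4me3 in Raji was 0.782, 1.08 and 0.949 untreated and 0.582, 1.16 and 0.804 treated, and no NALM6 or REH library had any. H3K4me2 was 6.80, 4.30 and 5.08 in untreated Raji against 0.823, 0.738 and 0.392 in untreated REH, groups far apart, and in NALM6 it appeared in 2 treated libraries at 0.432 and 0.425. The H3K4me2 that REH and NALM6 did have was strongest before the gene, with 67.6% of the called bases in REH and 70.9% in NALM6 lying in the flanks and the maxima at medians of -1501 and -1441 bp from the canonical start, and in Raji too the maximum was upstream, at -1376 bp, within a peak of median length 10605 bp. H3K27me3 over CD37 was called in more libraries of REH and NALM6 than of Raji. It was called in all 6 REH libraries, at 0.852 to 3.17, strongest near the end of the gene (median 7745 bp from the start). In the 4 NALM6 libraries outside replicate 1 it was 11.6 and 5.93 untreated and 11.1 and 49.0 treated. The 49.0 came from treated replicate 3, with 6.86 M reads and 78872 peaks of median length 380 bp. Its values, as multiples of so short a median peak, cannot be set beside those of the other libraries. In Raji H3K27me3 was 0.544 and 1.36 in 2 untreated libraries and 0.609 in 1 treated library, so the values of Raji and REH overlapped.

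**Figure D2:**
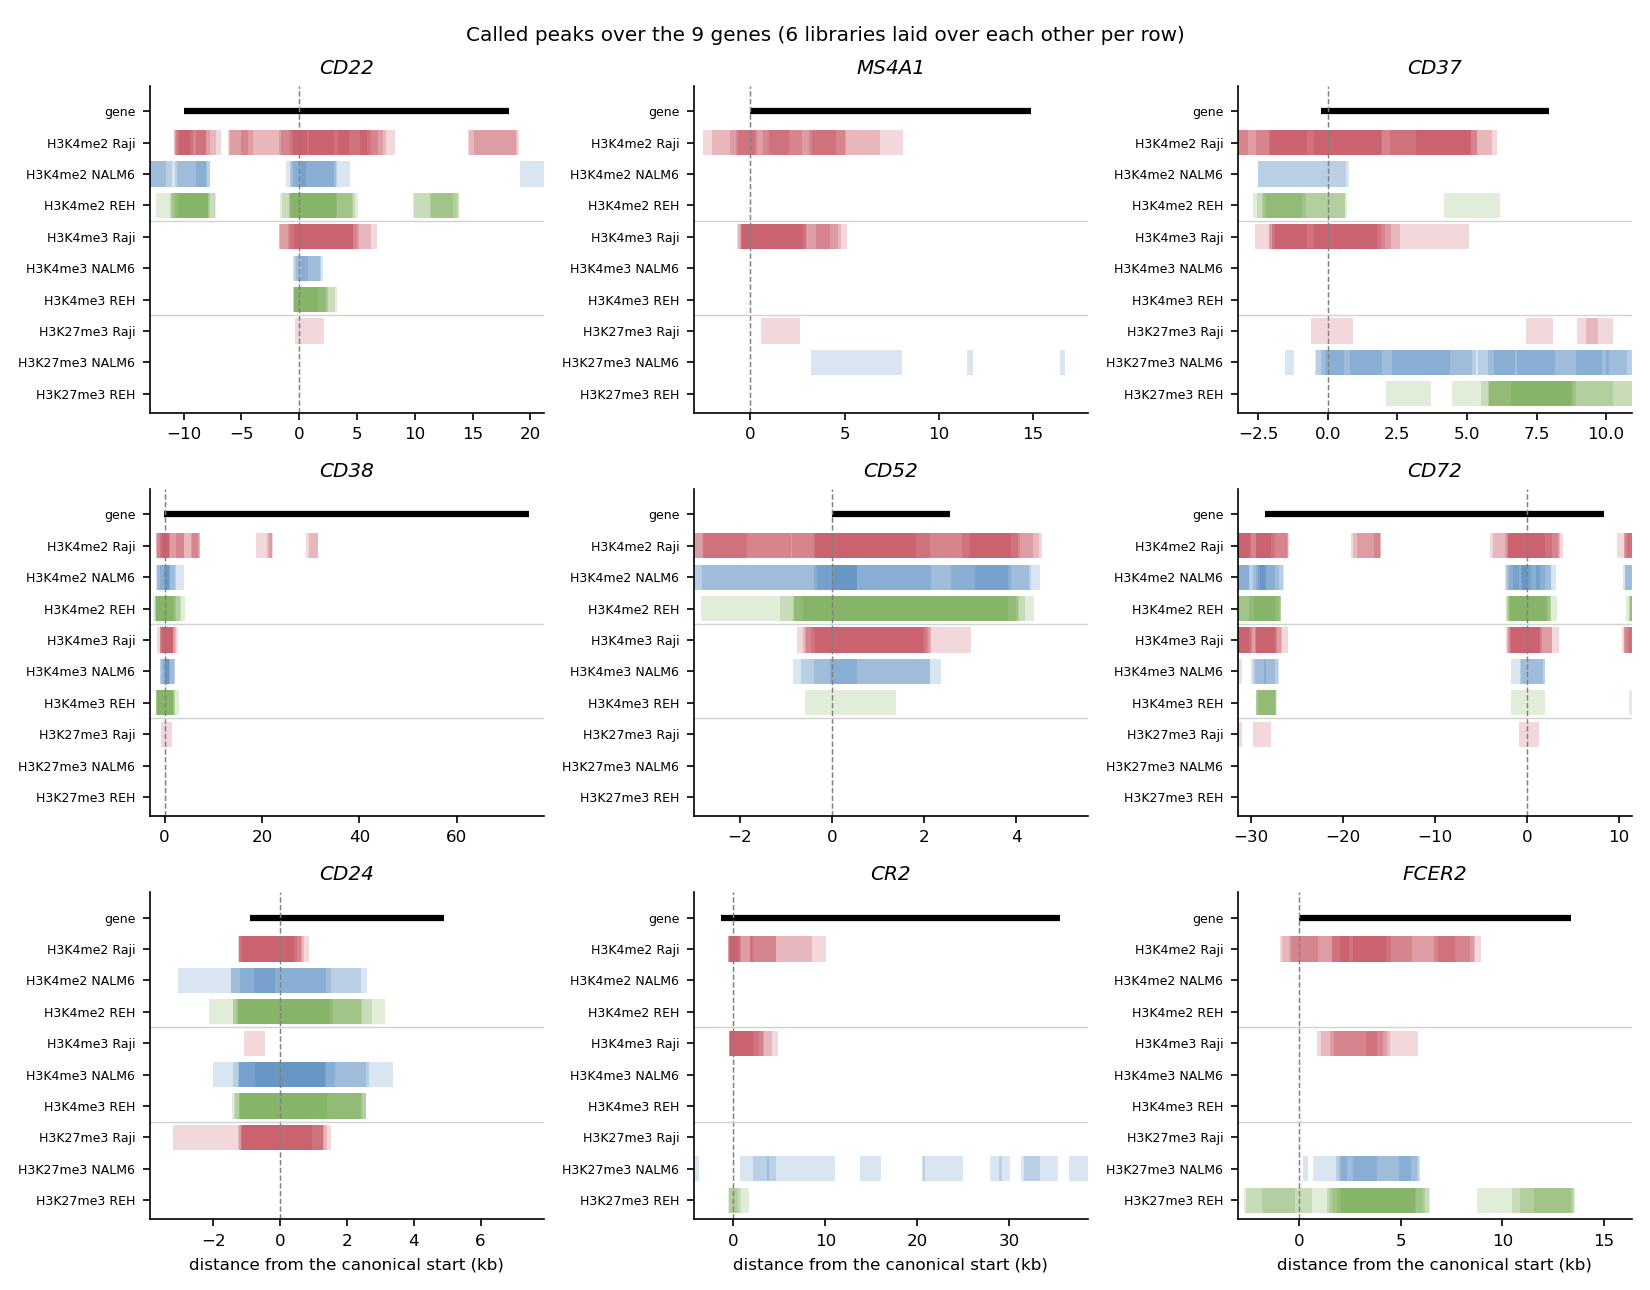
Called peaks over the 9 genes with 3 kb flanks, by distance from the canonical start in kb along the gene, with 1 row per mark and line and its 6 libraries laid over each other (darker, more libraries). At FCER2 the H3K4 marks of Raji and the H3K27me3 of REH and NALM6 cover the same stretch inside the gene, and at CD24 the H3K4me3 of NALM6 and REH faces H3K27me3 in Raji.

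CD24 encodes a small GPI-anchored sialoglycoprotein of early B cells and lies at chr6:106969831-106975627 on the minus strand. Near-identical copies of this gene exist elsewhere in the genome, so reads can be shared between them. CD24 ran opposite to the mature antigens. Its H3K4me3 was 4.45, 5.15 and 5.05 in untreated NALM6, 3.92, 2.61 and 3.76 in untreated REH, and 0.0677, 0 and 0 in untreated Raji. Treated libraries gave 6.67, 5.13 and 2.91 in NALM6, 2.55, 3.61 and 2.98 in REH and 0 in all 3 of Raji. H3K27me3 gave the reverse, with start peaks in 6 of 6 Raji libraries and in none of the 12 others. So CD24 was split between Raji and REH (2.08% of all genes, 88 toward Raji and 328 toward REH) and between Raji and NALM6 (0.499%, 67 toward Raji and 33 toward NALM6). FCER2 was also split between Raji and REH in H3K27me3, toward REH, and none of the 9 between NALM6 and REH (5.14%). The Raji H3K27me3 values were 0.988, 3.24 and 11.8 untreated and 1.47, 1.66 and 16.0 treated. They rest on libraries of very different depth, and the CD24 peak was there even in untreated replicate 1, with 5.12 M reads, 851 peaks and start peaks at 1.39% of all genes. The 16.0 came from treated replicate 3, whose 102183 peaks had a median length of 710 bp. As a multiple of so short a median peak, it cannot be set beside the other values. H3K4me2 stayed at CD24 in Raji, with 1.88, 0.983 and 0.810 untreated and 1.40, 1.03 and 0.813 treated. In Raji the maxima of H3K4me2 and of H3K27me3 lay close together, at medians of -677 and -694 bp from the canonical start at 106974729, whereas the H3K4me3 maxima of NALM6 and REH both lay at a median of 114 bp.

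CD22, a sialic acid-binding inhibitory receptor of the B cell receptor, lies at chr19:35319261-35347361 on the plus strand, and its canonical start, at 35329187, is well inside the annotated gene. Its H3K4me3 was 2.41, 2.25 and 1.88 in untreated Raji, 0.816, 0.554 and 0.578 in untreated REH, and 0, 0.316 and 0.471 in untreated NALM6, so every Raji library was above every other. H3K4me2 was 7.60, 4.36 and 7.03 in untreated Raji, 4.92, 4.91 and 4.18 in untreated REH and 0, 2.07 and 2.64 in untreated NALM6, with Raji and REH overlapping. H3K4me2 also covered the outermost start of the gene, -9926 bp from the canonical one, in 6 of 6 libraries of REH and of Raji and in 3 of 6 of NALM6. CD22 had an H3K27me3 start peak in 1 library, untreated Raji replicate 2, and CD38, CD72, MS4A1 and CD37 had their single Raji H3K27me3 start peaks in that same library, in which 57.0% of all genes had one.

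CD38, an ectoenzyme that degrades NAD and the target of daratumumab, lies at chr4:15778275-15853232 on the plus strand. It was the only 1 of the 9 genes with H3K4me2 and H3K4me3 start peaks in all 36 libraries of these marks. Its H3K4me3 was 1.57, 1.65 and 1.63 in untreated Raji, 1.21, 1.22 and 1.42 in untreated NALM6 and 2.14, 1.51 and 1.98 in untreated REH, so Raji and REH overlapped and NALM6 lay lowest. CD52, a short GPI-anchored glycoprotein bound by alemtuzumab, lies at chr1:26317958-26320523 on the plus strand and shares its window with a start of UBXN11. It had H3K4me2 start peaks in every library, and its H3K4me3 was 0.775, 0.887 and 0.725 in untreated Raji, 0, 0.560 and 0.708 in untreated NALM6 and 0.119, 0 and 0 in untreated REH, with no overlap between Raji and the others. CD72, a C-type lectin that restrains the B cell receptor, lies at chr9:35609982-35646810 on the minus strand, with a start of TESK1 in its window. Its H3K4me3 was 2.72, 2.69 and 2.97 in untreated Raji, 0, 1.14 and 1.61 in untreated NALM6 and 0.929, 0.513 and 0.450 in untreated REH. Its outermost start lies at -28397 bp from the canonical one at 35618413, in a peak that also covers the start of SIT1, a neighbouring lymphocyte gene. In Raji the strongest H3K4me3 peak had its maximum at a median of 12687.5 bp from the canonical start. That is beyond the end of CD72, at 8431 bp. In NALM6 and REH the medians were -28417.5 and -28412.5 bp, by the outermost start. Within 1 kb of the CD72 starts the untreated Raji H3K4me3 mean was 1.11, against 2.80 over the window. In H3K4me2 these means were 6.59 and 11.9. The strongest H3K4me2 peaks had their maxima at medians of -28542.5 bp in Raji, 7015 bp in NALM6 and 14067.5 bp in REH.

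**Figure D3:**
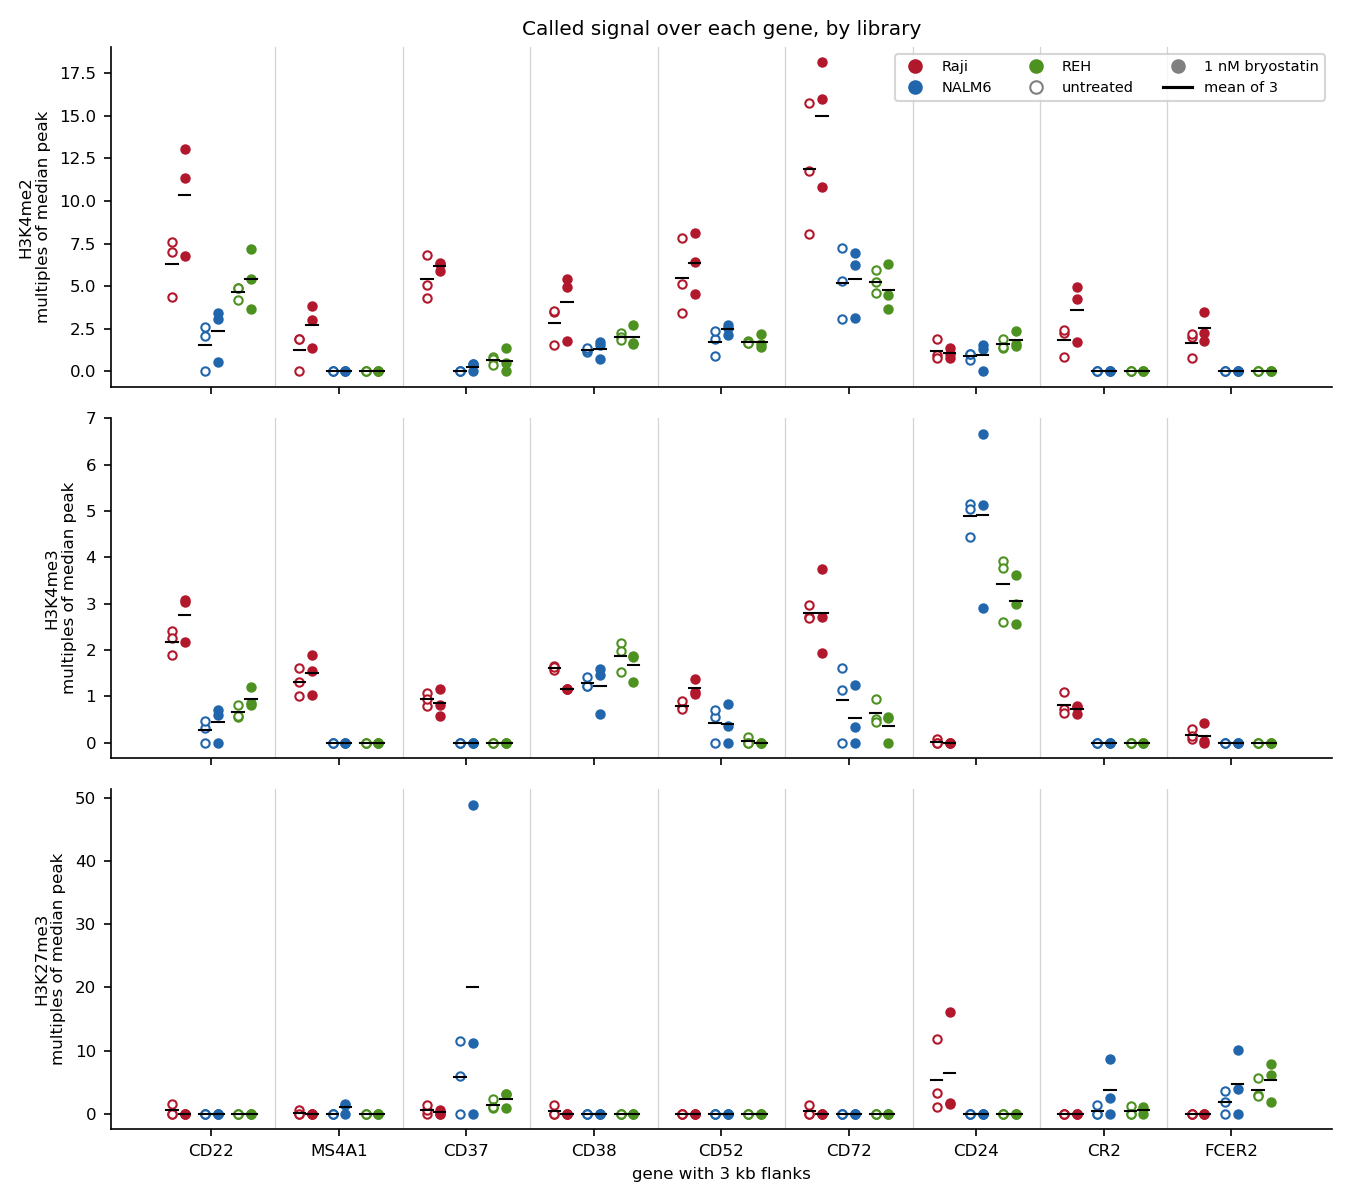
Signal of each mark over each gene with 3 kb flanks, in multiples of the library's median peak, 1 point per library (open, untreated; filled, 1 nM bryostatin) and a bar at the mean of 3. Raji stands highest for CD37, CD52 and CD72 in H3K4me2 and for CD22 in H3K4me3, and NALM6 and REH stand highest for CD24 in H3K4me3. The windows of CD52 and CD72 also hold starts of UBXN11 and TESK1.

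Levels at starts that were called in every library of a comparison were tested next. Peaks of the libraries were merged into regions, each library was centred on its median region, and log2 total signals were compared with limma over all regions, with Benjamini-Hochberg adjustment. A gene with no peak in a single library drops out, so MS4A1, CR2 and FCER2 could not enter any comparison between lines, nor CD37 one of H3K4me3. Between untreated Raji and REH, 46.8% of 7999 H3K4me2 regions passed an adjusted p of 0.05, and 5 of 6 genes tested passed. CD37 was higher in Raji by 3.14 on the log2 scale (SE 0.21, adjusted p = 7.99e-08), over a region of 49327351 to 49341290, with 1.88, 1.94 and 2.40 in Raji and -0.87, -0.72 and -1.62 in REH, and by 0.82 with the mean signal per called base (adjusted p = 0.00335) or 1.89 with the maximum signal. CD52 was higher by 1.39 (SE 0.12, adjusted p = 9.34e-07), or by 0.92 with the mean signal. Its window also holds a start of UBXN11, and 61.6% of the H3K4me2 bases called there in Raji lay in the flanks. CD72 was higher by 0.70 at its canonical start (SE 0.11, adjusted p = 0.000165) and by 1.32 at the outer start shared with SIT1 (SE 0.12, adjusted p = 9.68e-07). The first was lost with the mean signal (0.28, adjusted p = 0.255) and without centring (0.45, adjusted p = 0.0525), and the second turned with the maximum signal (-0.15, adjusted p = 0.508). CD24 was lower in Raji, with a log2 difference of -0.69 (SE 0.17, adjusted p = 0.00502), which was lost with the mean signal (-0.06, adjusted p = 0.834) and turned with the maximum signal (0.27, adjusted p = 0.268). CD38 differed by 0.09 (SE 0.18, adjusted p = 0.724). The 5 of 6 are to be read against that background of 46.8%. Without centring, the median over all regions was -0.25 in H3K4me2 and -0.20 in H3K4me3 (Raji minus REH), and the regions called split into 696 higher and 2129 lower in Raji rather than 1902 and 1842 in H3K4me2, and into 200 and 895 rather than 1604 and 1851 in H3K4me3. The differences given are relative to that median.

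CD22 differed in opposite directions at its starts. The region over the canonical start, 35327621 to 35336420, was higher in Raji by 0.57 in H3K4me2 (SE 0.13, adjusted p = 0.00292), with 1.45, 1.79 and 1.70 in Raji and 0.85, 1.23 and 1.14 in REH. The region over the outermost start, 35318031 to 35321460, was lower in Raji, with a log2 difference of -1.15 (SE 0.19, adjusted p = 0.000228) and values of -0.88, -1.22 and -0.41 in Raji against 0.16, 0.42 and 0.34 in REH. Neither pair of groups overlapped. The first was lost with the mean signal per called base, which gave -0.44 (adjusted p = 0.0834), with the maximum signal, which gave 0.14 (adjusted p = 0.558), and without centring, which gave 0.32 (adjusted p = 0.184). The second passed in all 14 alternatives that gave a value.

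For H3K4me3, 51.3% of 6729 regions differed between untreated Raji and REH and all 3 genes tested passed. CD22 was higher in Raji by 1.41 (SE 0.13, adjusted p = 1.45e-05), with 0.22, 0.68 and 0.45 in Raji and -0.92, -0.89 and -1.08 in REH, and the call was lost with the mean signal per called base (0.40, adjusted p = 0.156). CD38 was lower, with -0.55 (SE 0.16, adjusted p = 0.0178), and this call was lost without REH replicate 3 (adjusted p = 0.0732), with the maximum signal (adjusted p = 0.30) and without centring (adjusted p = 0.0780), and the direction turned with the mean signal (0.061, adjusted p = 0.851). CD72 was higher by 1.91 (SE 0.12, adjusted p = 2.18e-06) over the region shared with SIT1, and by 0.58 with the mean signal (adjusted p = 0.0553). Without Raji replicate 3 the peaks no longer joined, and the shorter region left at the outer CD72 start, up to 35647870, gave -0.22 (adjusted p = 0.365). Raji and NALM6 differed at 18.9% of 4093 H3K4me2 regions, and of 4 genes CD52 passed, with 1.19 (SE 0.32, adjusted p = 0.0357), a call lost without any 1 of the Raji libraries (adjusted p from 0.0719 to 0.132), with the mean signal (0.71, adjusted p = 0.0733) and without centring (adjusted p = 0.814). They differed at 20.2% of 5148 H3K4me3 regions, where CD38 alone could be tested and gave 0.03 (SE 0.23, adjusted p = 0.946). NALM6 and REH differed at 11.4% of H3K4me2 and 7.15% of H3K4me3 regions, with none of 4 and none of 2 genes past the threshold, CD38 coming nearest in H3K4me3 at -0.58 (SE 0.16, adjusted p = 0.0837). Leaving out NALM6 replicate 1 added CD22 and CD72 to CD52 for H3K4me2 and gave CD22 and CD72 for H3K4me3 between Raji and NALM6. Between NALM6 and REH it gave CD22, CD52 and CD72 for H3K4me2 and CD22, CD24 and CD38 for H3K4me3. The shares of regions above belong to the fits with replicate 1. Those of the smaller fits are not given here, so these lists have no background to be read against.

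**Figure D4:**
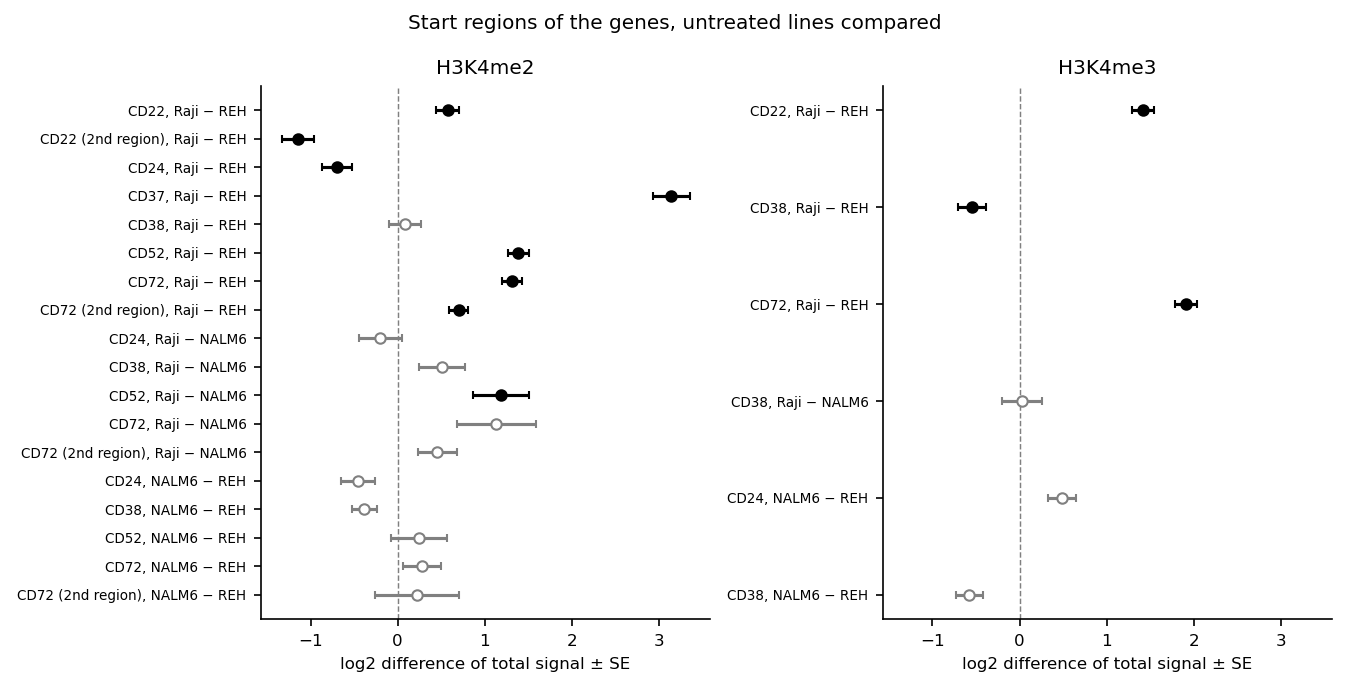
Log2 differences in total signal at start regions between untreated lines, with standard errors, for H3K4me2 (left) and H3K4me3 (right). Filled points passed an adjusted p of 0.05, and the CD22 regions of Raji against REH in H3K4me2 lie on opposite sides of 0.

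The second question was whether bryostatin moved the marks at these genes. In H3K4me3 of REH, 1.67% of 7238 regions passed and 1 of 3 genes tested did. CD22 rose by 0.62 on the log2 scale (SE 0.09, adjusted p = 0.00479), from -0.92, -0.89 and -1.08 to -0.35, -0.21 and -0.46, so the groups did not overlap and all 3 same-numbered pairs rose. The call was lost without treated replicate 2 (adjusted p = 0.050), with the maximum signal (adjusted p = 0.125), with the mean signal per base (adjusted p = 0.964) and with no centring (adjusted p = 0.0521). CD24 and CD38 gave -0.08 (SE 0.08) and -0.10 (SE 0.09) there.

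In H3K4me3 of Raji, 0.155% of 9040 regions passed and none of 7 genes did. CD22 gave 0.48 (SE 0.13, adjusted p = 0.476), from 0.57, 0.99 and 0.76 to 1.24, 1.41 and 1.11, and CD52 gave 0.70 (SE 0.19, adjusted p = 0.487), from -1.07, -0.35 and -0.62 to -0.28, 0.23 and 0.13. Neither pair of groups overlapped at all. The same-numbered libraries deviated together here, and when the replicate number entered the fit as a block both genes passed, with adjusted p = 0.0169 for CD22 (SE 0.08) and 0.00578 for CD52 (SE 0.10), while the number of regions called rose from 14 to 132. MS4A1 gave 0.32 (SE 0.15, adjusted p = 0.878), CR2 0.00 (SE 0.12) and CD38 -0.33 (SE 0.17, adjusted p = 0.885). Whether the response of CD22 differed between Raji and REH was tested as an interaction, which gave -0.14 (SE 0.17, adjusted p = 0.998), and 0.0776% of 6447 regions passed that test, with none of the 2 genes tested.

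In H3K4me2, 1.45% of regions passed in REH, 0% of 9316 in Raji and 0% of 4128 in NALM6, and none of 5, 8 and 3 genes did. At an unadjusted p under 0.05, 626 Raji and 56 NALM6 regions were counted. CR2 gave 0.66 in Raji (SE 0.25, adjusted p = 0.718) and CD22 0.36 (SE 0.13, adjusted p = 0.710), beside the deeper treated libraries named above. CD24 gave -0.44 in Raji (SE 0.21) and 0.21 in REH (SE 0.09), and the difference between these responses was -0.65 (SE 0.22, unadjusted p = 0.00969, adjusted p = 0.656), where 0.0275% of 7267 regions passed and none of 5 genes did. Without untreated Raji replicate 3 it was -0.87 with an adjusted p of 0.0495. H3K4me3 of NALM6 gave 0% of 3838 regions (7 at an unadjusted p under 0.05) and none of 2 genes, CD24 at -0.07 (SE 0.19) and CD38 at -0.19 (SE 0.23).

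**Figure D5:**
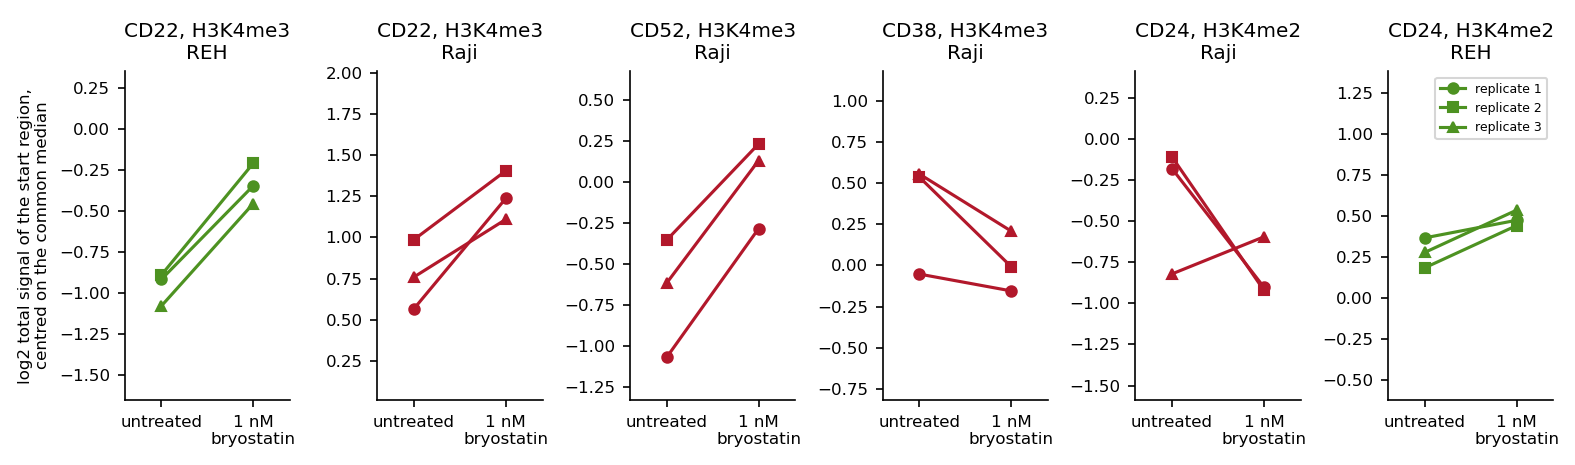
Log2 total signal of start regions, centred on the common median, in untreated libraries and with 1 nM bryostatin, with lines joining libraries of the same replicate number. In H3K4me3 every same-numbered line goes up for CD22 in REH and Raji and for CD52 in Raji, and in H3K4me2 of Raji 2 of 3 lines go down for CD24.

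The signal over whole genes was compared as well, which lets in genes with missing peaks. Of the 9 genes, CD38 and CD52 had groups that did not overlap in H3K4me3 of Raji, where 7.98% of 11743 genes were separated, 857 lower and 80 higher with bryostatin. CD38 was lower, from 1.57, 1.65 and 1.63 to 1.16, 1.15 and 1.16, and CD52 was higher, from 0.775, 0.887 and 0.725 to 1.06, 1.36 and 1.10. An exact permutation test, two-sided, gave p = 0.1 for each, the smallest that 3 libraries against 3 allow. None of the 9 was separated in the other 8 comparisons, in which the background was 1.53% (Raji), 9.31% (NALM6) and 0.432% (REH) for H3K4me2, 0.354% (NALM6) and 0.616% (REH) for H3K4me3, and 0% (Raji), 0.0953% (NALM6) and 0.35% (REH) for H3K27me3. CD22 in NALM6 was 0, 0.316 and 0.471 untreated and 0.710, 0.598 and 0 treated in H3K4me3, and the treated library without a peak, replicate 3, had 5.41 M reads and the fewest H3K4me3 peaks of all.

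The other surface antigens on a list of 24 B cell genes are given as counts. H3K4me3 start peaks were present in at least 3 of 6 libraries for 22 of the 24 in Raji, 7 in NALM6 and 8 in REH. In untreated libraries, 9 were split between Raji and REH and 10 between Raji and NALM6, all toward Raji, beside 434 and 578 of all 20033 genes split toward Raji (4.76% and 4.37% in either direction). At tested H3K4me2 regions of 11 of them, 4 were higher in Raji than in REH and 1 lower, a share near the 46.8% of all regions. Among them were CD27, a costimulatory receptor, at 3.61 (SE 0.13, limma adjusted p = 6.26e-10), TNFRSF13B, a receptor for BAFF and APRIL, at 2.01 (SE 0.15, adjusted p = 1.62e-07) and CD70, the CD27 ligand, at -0.69 (SE 0.14, adjusted p = 0.00122). In H3K4me3, 1 of 6 was higher in Raji and 3 lower, beside 51.3% of all regions. With bryostatin, H3K4me3 in REH fell at 2 of 5 (1.67% of all regions passed), by 0.38 at CD79B (SE 0.08, adjusted p = 0.0414) and by 0.33 at MME (SE 0.06, adjusted p = 0.0187), and none of the list passed in the other bryostatin fits.

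The genes most like each of the 9 in H3K4me3 at their starts were found by the Pearson correlation of log2(start signal + 0.1) over 18 libraries, which share lines and depth, so that the values only describe. CD22 was most like the readthrough gene P2RX5-TAX1BP3 and P2RX5 (0.971 each), CD38 like ARL6IP4 (0.903), CD52 like MBIP (0.983), CD72 like ARAP1 (0.970) and CD24 like BAHCC1 (0.997) and EIF4EBP1 (0.996). CR2 was most like UCHL1 (0.999) and ZNF521 (0.998), and FCER2 like CDK5R2 (0.960) and DOCK6 (0.955). Where a gene has peaks in 1 line alone, as MS4A1, CD37, CR2 and FCER2 do, any other gene marked in that line alone comes close to it.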

How the data were processed

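The 54 libraries of H3K4me2, H3K4me3 and H3K27me3 were analysed, and 18 IgG samples were not used here. The authors aligned reads to hg38 with Bowtie2, computed coverage and called stringent SEACR peaks per library, and each deposited peak carries its total signal and its maximum signal. Read counts were not used here, so mapped reads (5.12 to 47.9 M) were recovered from the RPKM step in 48 libraries. Precision is limited by 3 libraries per group.

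Members were located in GENCODE 44. Peaks of a fit were merged into regions, and log2 total signals of regions called in all its libraries, centred on the library median, were tested with limma 3.58.1 (R 4.3.3; eBayes with trend, Benjamini-Hochberg at 0.05). H3K27me3 was given by presence and gene signal only. Gene signal is each peak's total signal shared out by length over the gene with 3 kb flanks, divided by the library's median peak, and was compared by an exact permutation test. A gene was separated when all treated libraries lay above, or all below, all untreated ones. The scripts were tested on simulated data. All members were named, of other antigens at most 3 per comparison with the largest called changes, and up to 2 genes most alike. Members and lists were chosen with earlier results of these data known. Promoter sequences came from RefSeq.

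Same-numbered treated and untreated libraries deviated together (every correlation over 0.1) except in Raji H3K4me2 (-0.31 to 0.42), with 0.48 to 0.54 in Raji H3K4me3, and lines did not pair. Libraries of the unlike numbers 2 and 3 also deviated together in NALM6, with 0.41 and 0.35 in H3K4me2 and 0.51 and 0.57 in H3K4me3. They did so in Raji H3K4me2 too (0.48 and 0.41). Alternatives changed the signal measure, centring, merging, filters and samples. Those using the median region for scaling, or leaving out both NALM6 replicate 1 libraries, were chosen after seeing the data.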

Additional observations from a re-analysis of the deposited data

How the results depend on the processing

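Of 433 alternatives to 32 counts of genes, 361 stayed within 1.5 times the value given, and of 197 alternatives to 14 named regions 171 kept direction and call, 19 lost the call, 2 gained it and 5 reversed. Only 6 of the 32 counts and 3 of the 14 regions held in this sense under every alternative. The cause of these changes was not tested. Reversed were CD22 at its canonical start (H3K4me2, Raji minus REH, mean signal per base, -0.44), CD24 (H3K4me2, maximum signal, 0.27), the outer CD72 region (H3K4me2, maximum signal, -0.15; H3K4me3, without Raji replicate 3, -0.22 against up to 2.00 without another library) and CD38 (H3K4me3, mean signal per base, 0.061).

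Between lines in H3K4me2, the genes called for Raji against REH became 3 with the stronger peaks (above each library's median). For Raji against NALM6 they became 0 with mean signal, no centring or the stronger peaks, 2 with a replicate block or with regions missing in some libraries let in, and 3 in treated libraries. For NALM6 against REH they became 1 with such regions and 1 in treated libraries. In H3K4me3, Raji against REH gave 0 with mean signal, 5 with regions missing in some libraries and 1 with the stronger peaks. Raji against NALM6 gave 3, and NALM6 against REH 3, with such regions, and NALM6 against REH gave 1 with the stronger peaks and 1 in treated libraries. Without centring the median region of Raji minus NALM6 was 1.19 (H3K4me2) and 1.14 (H3K4me3), and of NALM6 minus REH -1.46 and -1.33.

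With bryostatin, the genes called in H3K4me3 of REH became 0 with maximum signal, mean signal, no centring or the stronger peaks, those in H3K4me3 of Raji 2 with the replicate block, and those in H3K4me2 of REH 1 with regions missing in some libraries. The block moved no other count of calls after bryostatin by over 1.5 times. Genes with separated signal became, in H3K4me2, 1 in Raji and 2 in REH with the median-region scaling, and 2 in NALM6 and 1 in REH when the replicate block asked only for 1 direction in all pairs. In H3K4me3 they became 4 in Raji under that block, 1 in Raji without scaling or within 1 kb of starts, and 1 in REH with maximum signal, without scaling or with the median-region scaling. In H3K27me3 they became 1 in Raji without scaling. Without both NALM6 replicate 1 libraries they became 5 in H3K4me2 and 3 in H3K27me3, with 2 libraries per group. Smaller groups separate more easily, and no share of all genes was counted for them, so these counts have no background.

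Start peaks in 1 line only, with the stronger peaks, became in H3K4me2 1 (Raji and REH), 1 (Raji and NALM6) and 0 (NALM6 and REH), in H3K4me3 2 and 2 for the pairs with Raji, and in H3K27me3 1 (Raji and REH) and 0 (Raji and NALM6). With equal peak numbers they became 1 (Raji and REH) and 0 (NALM6 and REH) in H3K4me2 and 0 in H3K27me3 for both pairs with Raji. NALM6 and REH gave 0 in H3K4me2 of treated libraries.

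Leaving out each library in turn, genes called between lines ranged in H3K4me2 from 0 to 3 (Raji and NALM6, and NALM6 and REH) and in H3K4me3 from 2 to 3 (Raji and REH), 0 to 2 (Raji and NALM6) and 0 to 3 (NALM6 and REH). Calls in H3K4me3 of REH after bryostatin, and differing responses in H3K4me2, ranged from 0 to 1. Separated genes ranged in H3K4me2 from 0 to 6 in Raji (6 without treated replicate 3), 0 to 5 (NALM6) and 0 to 3 (REH), in H3K4me3 from 2 to 3, 0 to 2 and 0 to 2, and in H3K27me3 from 0 to 1, 0 to 3 and 0 to 2. With a library left out, groups separate more easily, and the share of all genes was not counted for these smaller sets. Genes split between lines ranged in H3K4me2 from 2 to 3 (Raji and REH) and 3 to 4 (Raji and NALM6), in H3K4me3 from 4 to 5 for both pairs with Raji, and in H3K27me3 from 1 to 2 (Raji and NALM6).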
